A study of Mus musculus with 8 samples.

Results

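The genes described here are 10 genes of mitochondrial fusion and fission, Mfn1, Mfn2, Opa1, Oma1, Yme1l1, Dnm1l, Fis1, Mff, Gdap1 and Mtfr1. They were taken by name, as the rows of the count table that carry these symbols, with earlier results of these data known, and they are 10 of 21165 rows. RNA was sequenced from the microdissected cortex of mouse embryos at E18.5, shortly before birth, from 4 Nuak1 knockout (KO) and 4 wild-type (WT) embryos. The KO is constitutive, that is, not limited to a cell type, and animals without the gene die at birth. The labels give 2 males and 2 females in the KO group and 1 male and 3 females in the WT group, from 3 litters. A column's name shows its genotype and a number but not its embryo, so litter was not used, and its part in any difference was not tested. Sex was read from the counts of 4 Y-linked genes, which were high in 2 KO libraries and 1 WT library, the numbers of males in the labels, and entered as a term in an alternative fit chosen after seeing the data.

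Mitochondria fuse and divide continually, and the balance of both processes sets their length and number in a cell. Fusion joins the outer membranes through the mitofusins and the inner membranes through Opa1, whose forms are set by proteases of the inner membrane. Fission is carried out by the dynamin-related GTPase Drp1, the product of Dnm1l, which is recruited from the cytosol by receptors on the outer membrane. In neurons, division and fusion accompany the transport of mitochondria into axons, where NUAK1, an AMPK-related kinase, is known to act in axon branching.

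In the comparison of KO with WT cortices, none of the 10 genes passed an adjusted p of 0.05 (quasi-likelihood test of edgeR, adjusted by Benjamini-Hochberg over 12699 genes), and DESeq2 also called 0. Of all genes tested, edgeR called 0.0709% and DESeq2 0.551% at this threshold. At an unadjusted p under 0.05, 1 of the 10 was counted, Mfn1, which was lower in KO, against 7.69% of all genes in either direction and 3.18% in the lower direction. KO and WT libraries overlapped for all 10 genes. Of all genes tested, 4.49% did not overlap, and 0 of 10 is close to that share. Log2 fold changes lay between -0.16 and 0.08, with a median of 0.04 over the 10 genes and -0.01 over all genes tested.

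The mitofusins Mfn1 and Mfn2 are related genes, and a read that fits both cannot be assigned to either. Their coding sequences, of 2226 and 2274 bases, were identical at 67.8% of 2204 aligned positions. The longest run of identical bases was 21, shorter than the 100-base reads. The most alike stretch of 100 bases is shown because it is where reads of the 2 genes come closest, with the 14 bases that differ in capitals. It was read from NCBIM37, the assembly behind mm9, 5′ to 3′ on the coding strand. In Mfn1 it lies in exon 7 (chr3:32445522-32445617) and exon 8 (chr3:32453077-32453080) on the plus strand, and in Mfn2 in exon 9 (chr4:147261315-147261410) and exon 10 (chr4:147260530-147260533) on the minus strand.
Mfn1: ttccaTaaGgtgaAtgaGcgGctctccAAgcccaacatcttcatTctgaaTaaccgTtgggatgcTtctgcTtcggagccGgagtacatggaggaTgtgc
Mfn2: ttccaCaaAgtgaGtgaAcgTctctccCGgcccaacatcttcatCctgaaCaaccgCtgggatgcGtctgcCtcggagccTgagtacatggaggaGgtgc

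A stretch upstream of Opa1 is shown because no other member's promoter that was searched held the letters used here for the NRF1 motif core. NRF1 is a factor of nuclear genes for mitochondrial proteins. The letters searched were GCGCATGCG, or CGCATGCGC on the other strand, in the 250 bases before each gene's start. They were found in 1 of the 8 members that had a promoter record, and in 1.64% of 27025 genes with a record. The stretch is chr16:29579245-29579313 on the plus strand of GRCm38.p6, taken from RefSeq, with the motif in capitals at 59 to 51 bases before the start. Other spellings of the motif were not searched. A match in these letters is a description and not a site of binding.
Opa1: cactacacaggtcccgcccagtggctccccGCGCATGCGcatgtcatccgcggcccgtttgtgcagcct

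Libraries held between 9643711 and 27014858 counts, and each member had between 138 and 8182 raw counts in a library. Nuak1, the targeted gene, had a mean of 14.2 normalized counts in KO (SD 4.35) and of 1204 in WT (SD 260), with no overlap. A normalized count is the raw count divided by the effective size of its library and multiplied by the mean effective size. Counts on the 10 rows of mitochondrially encoded genes took 1.86% ± 0.10 of each KO library and 1.57% ± 0.12 of each WT library, without overlap. An exact 2-sided permutation of the libraries gave p = 0.0286 for this share, which is the lowest value possible with 4 libraries a genotype. Projection neuron markers, of 6 genes, summed to 1130–1253 CPM (counts scaled to a fixed library total) in KO and 798–1140 CPM in WT, and choroid plexus markers to at most 1.33 CPM. KO R1 stood apart with 647 CPM of 9 meningeal fibroblast markers, among them Col1a1 and Col1a2, against 22.2–40.0 CPM in the other 7 libraries. KO R1 also had the highest sums of endothelial, microglia and oligodendrocyte precursor markers, at 273, 55.5 and 91.0 CPM. The next highest libraries had 209, 39.2 and 87.3 CPM. KO R2 had the highest sum of red blood cell markers, at 287 CPM against 36.5–192 CPM in the other libraries. WT R4 held the lowest sum of projection neuron markers. In bulk tissue, fewer cells of a type and less RNA per cell cannot be told apart.

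Mfn1, a GTPase that tethers and fuses outer membranes, had the largest difference among the members. It lies at chr3:32428387-32478161 on the plus strand. Its normalized counts were 1764, 2027, 1909 and 1892 in KO R1 to R4, and 1907, 2038, 2226 and 2302 in WT R1 to R4. The KO libraries were in the lower part of the range, but WT R1 lay among them. The means were 1898 ± 107 in KO and 2118 ± 179 in WT (SD, n = 4 per genotype). This was a log2 fold change of -0.16 (SE 0.07), or -10.3% with a 95% interval from -19.2% to -0.418%. By edgeR, the unadjusted p was 0.0428 and the adjusted p 0.645, and Mfn1 ranked at 840 among all genes by p.

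The unadjusted p of Mfn1 stayed under 0.05 in 3 of the 8 fits that each left out 1 library, with log2 fold changes from -0.20 to -0.11 and edgeR p from 0.0135 to 0.127. Across all alternatives its adjusted p lay between 0.49 and 0.996. When KO R1 and WT R4 were both left out, an alternative chosen after seeing the data, its log2 fold change was -0.07 with an edgeR p of 0.257. With a term for sex, Mfn1 had a log2 fold change of -0.13 and an edgeR p of 0.0914, and no member had an unadjusted p under 0.05. KO R1 and WT R4 held its lowest and its highest value, and the part in this difference of the marker sums of these 2 libraries was not tested.

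Mfn2 shares the fusion of outer membranes with Mfn1 and is also known at contacts with the endoplasmic reticulum. It lies at chr4:147247708-147278813 on the minus strand. Its normalized counts were 2219, 2515, 2357 and 2450 in KO R1 to R4, and 2608, 2416, 2426 and 2571 in WT R1 to R4. KO R1 and KO R3 were below all WT libraries, and the other 2 KO libraries lay among them. Its log2 fold change was -0.07 (SE 0.05), with an adjusted p of 0.82 by edgeR. The interval, from -12.4% to 3.49%, included 0.

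Opa1, the GTPase of inner membrane fusion and of cristae shape, lies at chr16:29579420-29654970 on the plus strand. Its normalized counts were 3112, 3726, 3672 and 3563 in KO R1 to R4, and 3712, 3928, 3664 and 3405 in WT R1 to R4. KO R1 was the lowest library and WT R2 the highest, and the other 6 lay between 3405 and 3726. Its log2 fold change was -0.06 (SE 0.07), with an adjusted p of 0.868 by edgeR and an interval from -13.7% to 5.97%. All 3 fusion GTPases had a log2 fold change below 0, with a median of -0.07, and none of the 3 passed the adjusted threshold. Of all 12699 genes tested, 6905 also had a log2 fold change below 0. Without KO R1 the log2 fold change was -0.003 for Opa1 and -0.03 for Mfn2.

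**Figure D1:**
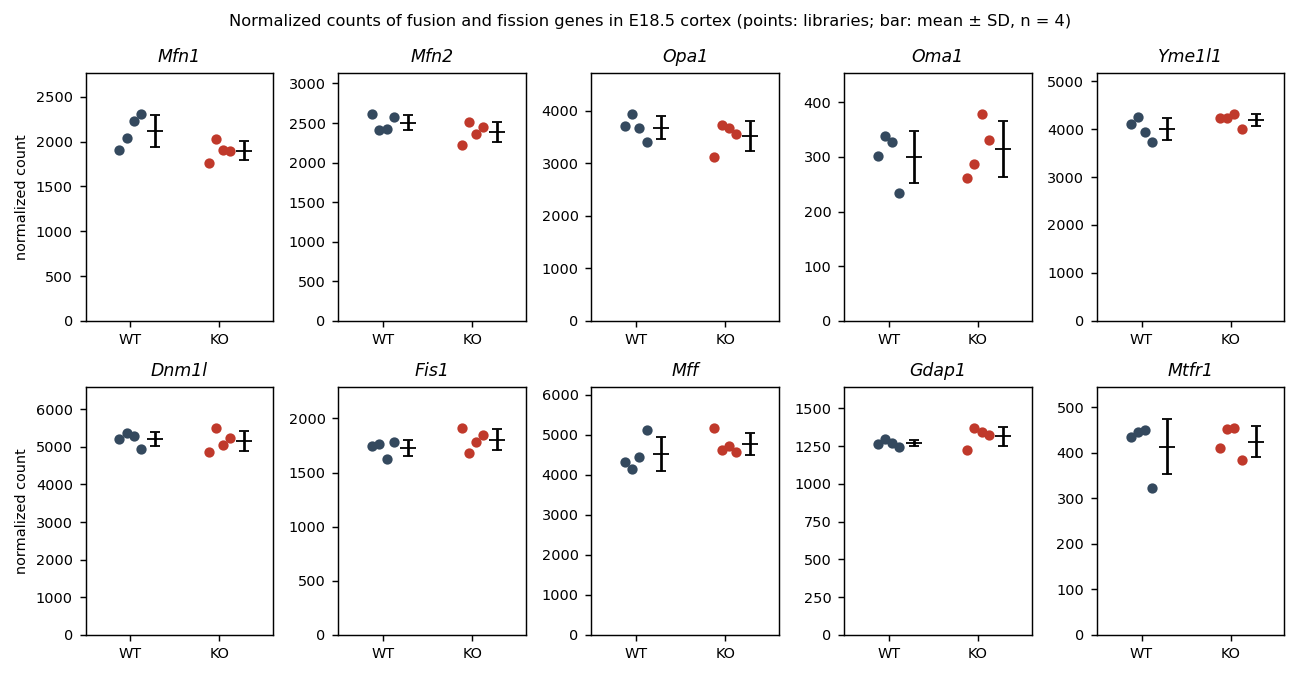
Normalized counts of the 10 genes (vertical axis, from 0) in the 4 WT and 4 KO libraries, with 1 point per library and a bar for the mean ± SD. The genotypes overlap in every panel, and Mfn1 shows the widest gap between means relative to the spread, at 1898 in KO and 2118 in WT.

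Proteases of the inner membrane that cut Opa1 were represented by Oma1, which acts under stress, and Yme1l1, which acts in unstressed mitochondria. Oma1 (chr4:102986417-103044473, plus strand) was counted at 261, 287, 377 and 331 normalized counts in KO R1 to R4, and 302, 338, 326 and 233 in WT R1 to R4. It was the most variable member, with a highest library 1.62 times its lowest, and the genotypes overlapped throughout. Its log2 fold change was 0.07 (SE 0.14), with an adjusted p of 0.942 by edgeR and an interval from -15.2% to 29.8%. Its sign turned without KO R3 (-0.03) and without WT R4 (-0.02).

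Yme1l1 (chr2:23011889-23054780, plus strand) was counted at 4236, 4234, 4305 and 4007 in KO R1 to R4, and 4104, 4260, 3942 and 3728 in WT R1 to R4. WT R4 was the lowest library, and KO R1, R2 and R3 were close together and close to WT R2. Its log2 fold change was 0.06 (SE 0.05), with an adjusted p of 0.833 by edgeR and an interval from -3.64% to 13.5%. A stretch of 208 bases of its coding sequence has a copy of 96.2% identity on chromosome X, in Gm14897, so that some of its reads may not have been assigned.

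Dnm1l, which encodes the GTPase that constricts mitochondria, lies at chr16:16312328-16359123 on the minus strand. Its normalized counts were 4862, 5492, 5063 and 5250 in KO R1 to R4, and 5216, 5374, 5293 and 4947 in WT R1 to R4. The KO libraries spanned the WT libraries at both ends. The means were 5167 ± 268 in KO and 5207 ± 185 in WT (SD). The log2 fold change of -0.01 (SE 0.05) was the smallest of the 10 genes, and its interval ran from -8.52% to 7.53% (adjusted p = 0.976 by edgeR). Its sign turned in 3 fits that left out 1 library, with values of up to 0.02. A stretch of 163 bases of its UTR has a copy of 95.1% identity on chromosome 2.

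Fis1 and Mff were classed here as receptors that bring Drp1 to the outer membrane. Fis1 (chr5:137429145-137442104, plus strand) was counted at 1908, 1677, 1786 and 1848 in KO R1 to R4, and 1749, 1761, 1622 and 1779 in WT R1 to R4. KO R2 lay within the WT range and the other 3 KO libraries above it. For Fis1 the log2 fold change was 0.06 (SE 0.06), with an adjusted p of 0.845 by edgeR and an interval from -4.08% to 13.8%.

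Mff (chr1:82721465-82748969, plus strand) was counted at 5162, 4624, 4718 and 4574 in KO R1 to R4, and 4321, 4149, 4459 and 5131 in WT R1 to R4. WT R4 was the second highest library, next to KO R1, and the other 3 WT libraries were below all 4 KO libraries. Over all 8 libraries the log2 fold change was 0.08 (SE 0.07), with an adjusted p of 0.845 by edgeR. Without WT R4 it was 0.15, with an unadjusted edgeR p of 0.0187 and an adjusted p of 0.31, the lowest adjusted p of any member in any fit. Without WT R2 it was 0.04 and without KO R1 it was 0.05, with adjusted p of 0.924 and 0.979 by edgeR. Without KO R1 and WT R4 together it was 0.116, with an unadjusted edgeR p of 0.0376 and an adjusted p of 0.418. A total of 195 exon bases of Mff are shared with a noncoding RNA on the opposite strand, C430014B12Rik. The strand setting used in the counting is not given in the sources used here.

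Gdap1, a protein of the outer membrane with a role in fission, and Mtfr1, a regulator of fission, complete the set. Gdap1 (chr1:17135443-17154352, plus strand) had 1225, 1367, 1345 and 1323 normalized counts in KO R1 to R4, and 1266, 1294, 1274 and 1245 in WT R1 to R4. It was the least variable member, and its WT libraries all lay within the range of KO. Its log2 fold change was 0.05 (SE 0.05), with an adjusted p of 0.868 by edgeR and an interval from -4.43% to 12.2%.

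Mtfr1 (chr3:19087327-19120817, plus strand) had 410.0, 452, 454 and 384 normalized counts in KO R1 to R4, and 435, 446, 451 and 323 in WT R1 to R4. WT R4 was far below the other 3 WT libraries, and those lay within the KO range. For Mtfr1 the log2 fold change was 0.03 (SE 0.11), with an adjusted p of 0.968 by edgeR. Without WT R4 it was -0.06, and without KO R3 it was -0.003. Its UTR has a copy of 191 bases at 96.3% identity on chromosome 4.

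**Figure D2:**
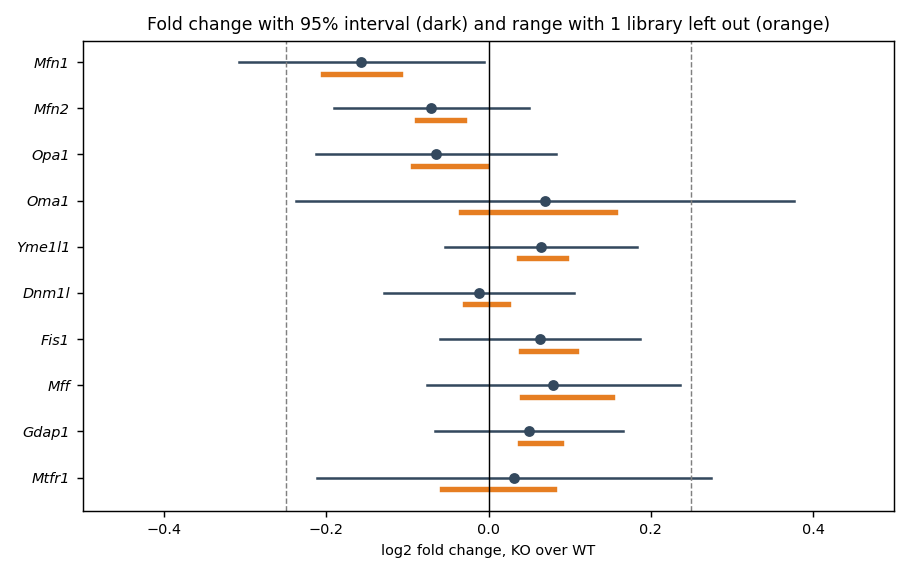
Log2 fold change of each gene, KO over WT (horizontal axis), with its 95% interval in dark and, beneath it, the range over fits that each left out 1 library in orange. Dashed lines mark 0.25 on either side of 0. The interval of Mfn1 ends just below 0, at -0.006, and those of the other 9 genes include 0.

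The precision of these values was set against the study's own limit on fold change, 0.25 on the log2 scale. The 95% interval lay within 0.25 on either side of 0 for 7 of the 10 genes, or 70% of them, against 36.5% of all genes tested. Among the other mitochondrial dynamics genes described below it did so for 22 of 30, or 73.3%, so this was not particular to the members. The exceptions among the 10 genes were Mfn1, whose interval reached down to -0.31, Oma1, whose interval ran from -0.24 to 0.38, and Mtfr1, whose interval reached 0.27. For the 5 genes of fission the median log2 fold change was 0.05. Over 8 libraries the coefficient of variation of the members ran from 3.82% for Gdap1 to 15.0% for Oma1, with a median of 5.95%, against a median of 10.0% over all genes, and 8 of 10 members lay below that median. Oma1 and Mtfr1, the members above it, are also those with the fewest counts. The values over all genes tested were not matched to the members by level.

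KO R1 and WT R4 held most of the extreme values. KO R1 was the lowest library for Mfn1, Mfn2, Opa1, Dnm1l and Gdap1 and the highest for Fis1 and Mff. WT R4 was the lowest for Oma1, Yme1l1 and Mtfr1 and the highest for Mfn1. In log2 units, deviations from the mean of the 8 libraries in KO R1 were -0.18 for Mfn1, -0.21 for Opa1 and 0.16 for Mff, and in WT R4 they were -0.38 for Oma1 and -0.37 for Mtfr1. Genes under 2000 bases of exon stood above genes over 6000 bases by a median of 0.14 in KO R1 and 0.10 in WT R4, and by -0.15 to 0.05 in the other 6 libraries, a measure chosen after seeing the data. The part of this trend, and of the fibroblast markers in KO R1, in the members' values was not tested.

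**Figure D3:**
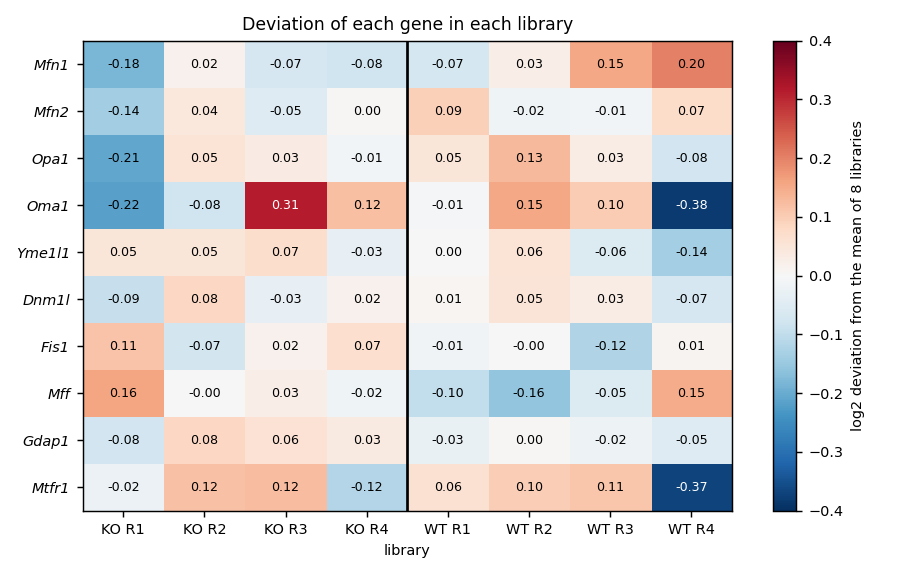
Log2 deviation of each gene (rows) from its mean over 8 libraries in each library (columns), from blue for lower to red for higher, with KO libraries to the left of the black line. The deepest blue cells are Oma1 and Mtfr1 in WT R4, at -0.38 and -0.37.

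Levels were compared between genes as CPM per kilobase of exon (mean ± SD over 8 libraries). Dnm1l stood highest at 75.0 ± 3.10, followed by Mff at 68.7 ± 5.31 and Fis1 at 62.4 ± 3.16. The ranges of these 3 fission genes overlapped in turn, with Dnm1l above Mff in 6 of 8 libraries and Mff above Fis1 in 7 of 8. Yme1l1 at 31.0 ± 1.501, Mfn2 at 28.5 ± 1.44 and Opa1 at 27.7 ± 1.89 formed the next group, whose neighbours also overlapped. Mfn1 at 20.6 ± 1.85, Gdap1 at 14.3 ± 0.547, Oma1 at 8.67 ± 1.30 and Mtfr1 at 5.80 ± 0.637 followed without overlap between neighbours. Among 12198 genes with a length, Dnm1l stood at the 94.1 percentile of level and Mtfr1 at the 44.5 percentile.

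The order of the top 3, the order of Mfn2 and Opa1, and which ranges overlapped depended on the length used. With the length of the longest transcript in place of all exons, an alternative chosen after seeing the data, Mff came first at 134.7, then Fis1 at 112.8 and Dnm1l at 75.7. Dnm1l, at most 80.2, then overlapped neither Fis1 nor Mff, whose lowest libraries were at 103.6 and 120.4. By this length Opa1, at 35.0, stood above Mfn2, at 34.1. The range of Yme1l1, 47.9 to 55.4, lay above those of Opa1, 30.2 to 38.2, and Mfn2, 30.9 to 36.4. Mfn1, at 23.4 to 30.6, overlapped Opa1. The range of Oma1, 7.37 to 11.9, then overlapped that of Mtfr1, 6.61 to 9.30. The level of Mff over that of Dnm1l went from 0.916 to 1.78, and that of Fis1 over Dnm1l from 0.831 to 1.49. Mff has 16 annotated transcripts and Dnm1l 4.

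**Figure D4:**
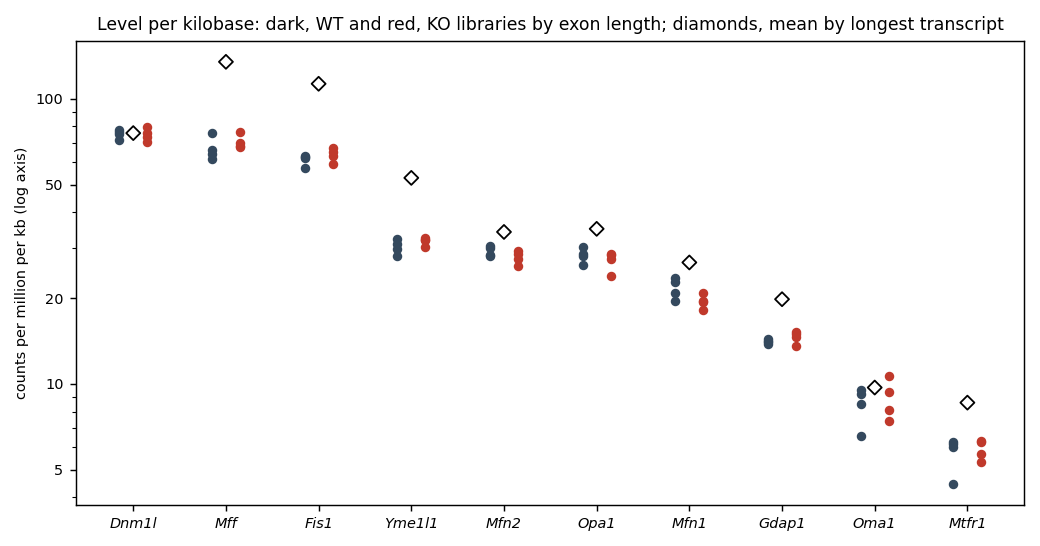
CPM per kilobase of exon (vertical log axis) of each gene in the WT (dark) and KO (red) libraries, ordered by mean, with diamonds for the mean by the length of the longest transcript. WT and KO points overlap for every gene, and the diamonds lie above the points most clearly for Mff and Fis1.

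Ratios between genes grouped here at the same step, and of the fusion GTPases to the fission GTPase, also overlapped between genotypes. Mfn1 made up 41.2%, 41.5%, 41.6% and 40.5% of the summed level of Mfn1 and Mfn2 in KO R1 to R4, and 39.1%, 42.6%, 44.7% and 44.1% in WT R1 to R4. The KO values were close together and lay within the wider WT range. Fis1 made up 47.5% ± 1.17 of Fis1 plus Mff in KO and 47.8% ± 2.33 in WT. Oma1 made up 21.8% ± 2.78 of Oma1 plus Yme1l1 in KO and 21.7% ± 2.06 in WT. Fusion GTPases over Dnm1l gave 0.994 ± 0.0258 in KO and 1.05 ± 0.0422 in WT (SD over 4 libraries), with KO R3, at 1.03, above WT R2, at 1.02.

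Other genes of mitochondrial dynamics, from a list of 32, were described next. Mtfp1 was not analysed here, Pld6 was below the filter on low counts with at most 5 counts in a library, and 30 were tested. At an adjusted p of 0.05, edgeR called 0 of the 30, and at an unadjusted p under 0.05 it counted 1, which was higher in KO, against 7.69% of all genes in either direction and 4.51% in the higher direction. Of the 30, 13 had a positive and 17 a negative log2 fold change, with a median of -0.01 and a range from -0.13 to 0.14. The 10 genes of fission had a median of -0.003, the 13 of fusion and inner membrane -0.03 and the 7 regulators -0.01.

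Stoml2, a scaffold protein of the inner membrane, was the gene with the smallest p and the only one of the 30 whose genotypes did not overlap, where 4.49% of all genes tested did not. Its normalized counts were 1658, 1469, 1475 and 1448 in KO R1 to R4, and 1373, 1432, 1353 and 1331 in WT R1 to R4. Every KO library was above every WT library, with KO R4 and WT R2 closest. Its log2 fold change was 0.14 (SE 0.06), with an unadjusted p of 0.0366 and an adjusted p of 0.631 by edgeR. Its unadjusted p was not under 0.05 when any of KO R1, KO R3, WT R1 or WT R3 was left out, nor without KO R1 and WT R4 together or with a term for sex. Chchd3 and Chchd6, of the complex that shapes cristae junctions, had log2 fold changes of 0.10 and 0.08 (adjusted p = 0.78 and 0.80 by edgeR). Immt, the core subunit of that complex, named after its value was seen, was at 0.0039 (adjusted p = 0.991 by edgeR). On the other side were Slc25a46, an outer membrane protein, at -0.11, Senp5, a SUMO protease, at -0.13 and Dnm2, a dynamin, at -0.06, with adjusted p of 0.773, 0.817 and 0.845 by edgeR.

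**Figure D5:**
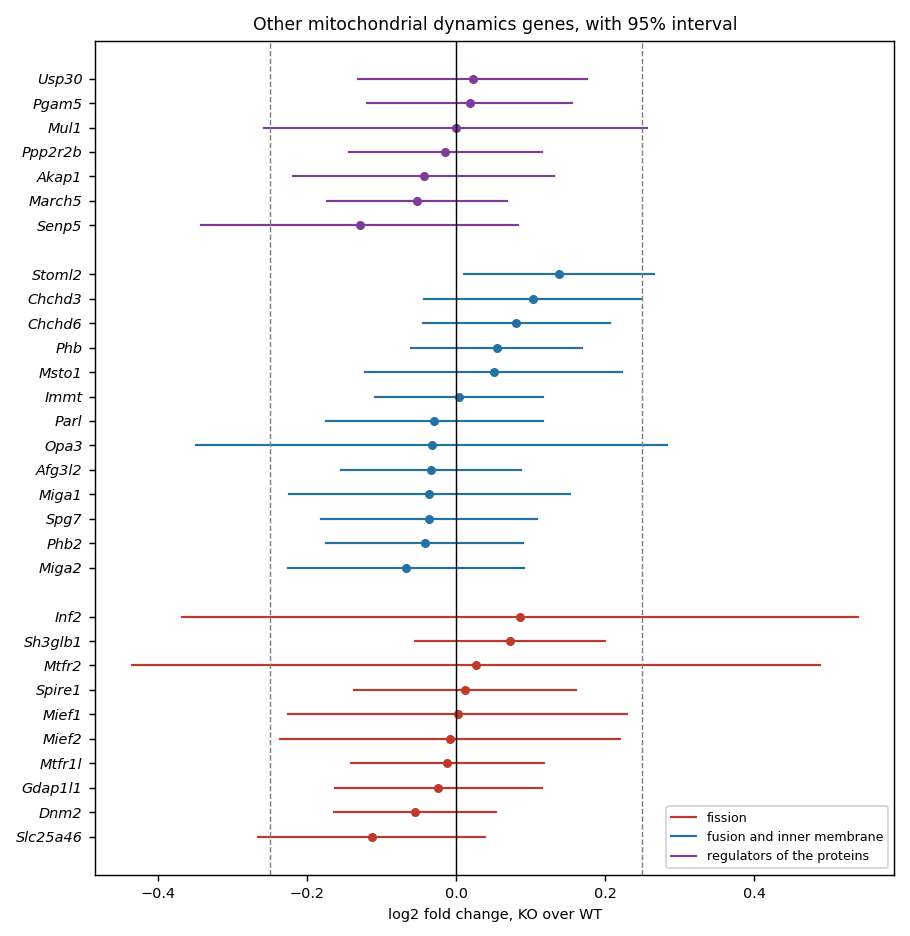
Log2 fold change, KO over WT, with its 95% interval, of the 30 other mitochondrial dynamics genes, coloured by group and sorted within it. Dashed lines mark 0.25 on either side of 0. Stoml2 is the highest at 0.14 and Senp5 the lowest at -0.13.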

How the data were processed

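RNA-seq counts came from 8 E18.5 cortices, 4 of Nuak1 KO and 4 of WT embryos (poly-A RNA, stranded kit, paired-end reads of 100 bases). Per the study's methods and the submitters' processing notes, reads were trimmed with cutadapt 1.13 and Prinseq, mapped with TopHat2 2.0.13 to mm9 (with SAMtools 0.1.19), and counted per gene with HTSeq-count. The authors deposited these whole-number counts without normalization. Reads that fit several places may have been lost at that step. Copies of at least 95% identity over 100 bases or more were found elsewhere in the genome for Yme1l1, Dnm1l and Mtfr1 (blastn 2.17.0).

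Libraries were grouped by genotype and tested in R 4.3.3 with edgeR 4.0.16 (filterByExpr, TMM, quasi-likelihood test, genotype as the only term) on 12699 of 21165 rows, which hold 99.93% of counts. The standard error is the size of the log2 fold change over the square root of the F statistic. The script was run on simulated data with planted changes. That check required recovery only of changes larger than those of the members, so it does not bear on how well small changes are found. P-values measure the spread between embryos. Libraries of a genotype all differed by more than sampling noise (chi-square per degree of freedom of at least 5.92). Exact permutation used scipy 1.17.1. Lengths and positions came from an annotation of NCBIM37, with a length for 96.1% of rows tested.

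The members and the lists were chosen with earlier results of these data known. The genes named by rule are the 10 members, Nuak1 and, of the other dynamics genes, the 3 with the smallest p in each direction. Immt was added after its value was seen. Other genes are named only as untested, as markers, or as an overlap or copy of a member. The study's fold-change limit was used for intervals only. Lists of markers for meningeal fibroblasts, endothelial cells, red blood cells, microglia, interneurons, progenitors, projection neurons, oligodendrocyte precursors and choroid plexus were summed per library. Endothelial markers summed to 176–273 CPM in KO and 163–191 CPM in WT, progenitor markers to 128–183 and 123–226, interneuron markers to 152–171 and 158–209, microglia markers to 26.9–55.5 and 27.8–39.2, red blood cell markers to 37.4–287 and 36.5–86.3, and oligodendrocyte precursor markers to 59.9–91.0 and 52.0–87.3. No marker was at 0 in all libraries.

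Alternatives were DESeq2 1.42.0, edgeR with DESeq2 size factors, all rows with a count, a minimum of 10 counts per library, and each library left out. Leaving out KO R1 and WT R4 together, a term for sex (at least 100 counts over 4 Y-linked genes) and the length of the longest transcript were added after seeing the data.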

Additional observations from a re-analysis of the deposited data

Results flagged for a closer look

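Of 42 groups of 4 libraries (each gene described here, or other dynamics gene of the named set, in KO or WT, and library measures), 2 held a library whose gap to the nearest other, divided by the range of the group, was above Dixon's critical value. Chance gives about 1 in 20, or 2.1 groups. The marker sums were not among these groups. The sum of meningeal fibroblast markers in KO R1 was 647 CPM, against 28.6–40.0 CPM in the other KO libraries. Mtfr1 in WT R4 had 323 normalized counts, the next lowest WT library having 435. Stoml2 in KO R1 had 1658 normalized counts, the next highest KO library having 1475.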

How the results depend on the processing

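No member passed an adjusted p of 0.05 in any alternative, and of 140 values of members under alternatives 9 changed sign, in Dnm1l, Oma1 and Mtfr1. With 1 library left out, log2 fold changes ran from -0.0294 to 0.0237 for Dnm1l, from -0.0341 to 0.155 for Oma1 and from -0.0575 to 0.0802 for Mtfr1. Without KO R1 and WT R4 together they were 0.000621 for Dnm1l and -0.0406 for Mtfr1. Genes past an adjusted p of 0.05 numbered 9 by edgeR, 70 by DESeq2, 20 without KO R1 and WT R4, 3 with a term for sex, and 2 to 11 with 1 library left out. Genes at an unadjusted p under 0.05 numbered 977, 654 with a term for sex, and 651 (without WT R3) to 1604 (without WT R4) with 1 library left out. Members at that level numbered 1, and 0 to 1 with 1 library left out (0 without KO R1, KO R3, KO R4 or WT R3). Without WT R4, and also without KO R1 and WT R4 together, the 1 member was Mff, and with a term for sex there was 0. Other dynamics genes at that level numbered 1, and 0 to 3 with 1 library left out, and 0 without KO R1 and WT R4 or with a term for sex. The median log2 fold change of the members was 0.04, and -0.024 (without WT R4) to 0.0524 with 1 library left out. What caused these shifts was not tested. No paired analysis was possible because litter and embryo are not in the column names, so the fit with a replicate block was not run.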
